A study of Mus musculus with 6 samples.

Results

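The G1 cyclins and the inhibitors of their kinases are the genes that set how readily a cell leaves G1 and starts to copy its DNA. 10 mouse genes were chosen by name: the D-type cyclin genes Ccnd1, Ccnd2 and Ccnd3, the E-type cyclin genes Ccne1 and Ccne2, the Cip/Kip inhibitor genes Cdkn1a and Cdkn1b, and the Ink4 inhibitor genes Cdkn2a, Cdkn2b and Cdkn2c. Of these 10, 8 have a row in the table of 23644 genes, and all 8 passed the filter on low values. Cdkn2a and Cdkn2b have no row in the table used here and were not analysed.

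The cells were 4T1, a mouse mammary tumour cell line, with transcripts measured by RNA sequencing. There were 3 libraries of Carmil3 KO cells, which per the labels were clones, each grown out from 1 cell, and 3 libraries of WT 4T1 cells, the control. Carmil3 encodes a CARMIL family protein, which binds the actin capping protein. Both groups were grown in DMEM with serum and antibiotics, and no age, treatment or other allele is given. The sources used here give neither the method of the knockout nor the number of clones, and they do not say that replicates were separate cultures. The p-values therefore cover only the spread between these libraries, which may be technical. A difference between clones and the control line that does not stem from Carmil3 cannot be told apart from one that does.

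D-type cyclins are made in answer to growth signals and activate the kinases Cdk4 and Cdk6, which phosphorylate the retinoblastoma protein and so release E2F transcription factors. E2F factors switch on the E-type cyclins, which activate Cdk2, and the genes of DNA replication. Ink4 proteins bind Cdk4 and Cdk6 alone, while the Cip/Kip proteins p21 and p27, the products of Cdkn1a and Cdkn1b, bind whole cyclin-kinase complexes. In mammary tissue cyclin D1 is known as the D-type cyclin that alveolar growth depends on and as an oncogene in breast cancer.

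Transcript levels are given as FPKM, read numbers scaled by exon length and by sequencing depth, so levels of different genes can be compared within a library. A gene was called where limma on log2(FPKM + 1), with Benjamini-Hochberg adjustment over the 11171 genes tested, gave an adjusted p under 0.05. Each log2 change is Carmil3 KO over WT on that scale, which understates the change of genes at a few FPKM. The libraries held between 17779068 and 19046740 reads, by totals worked out from the steps between listed values. Over all genes tested 1886 were higher and 2087 lower in Carmil3 KO cells, which is 16.9% and 18.7%, or 35.6% in all. For 50.5% of the genes tested, no library of one group fell within the range of the other. The leading principal component held 71.4% of the variance and separated Carmil3 KO from WT libraries. On the next, with 11.8%, Carmil3 KO replicate 3 lay at -15.55, and replicates 1 and 2 lay at 6.73 and 9.56. Carmil3 itself was listed at 0, 0.0118 and 0.0241 FPKM in Carmil3 KO libraries and at 0.0360, 0.0246 and 0.0117 FPKM in WT libraries, too low in both groups to check the labels. Of the mammary epithelial markers all 8 have a row, and their summed level was 430.1 to 475 FPKM in Carmil3 KO libraries and 1050.0 to 1152 FPKM in WT libraries. Most of that sum was Krt8 and Krt18, and all 8 were called lower. Others of the list differed further: Epcam, Krt7, Cldn4 and Cdh1 measured 0.0875, 0.149, 0.0299 and 0.773 FPKM in Carmil3 KO cells, against 19.7, 27.9, 20.3 and 12.4 FPKM in WT cells. Of 8 fibroblast and mesenchymal markers 6 have a row, with sums of 841 to 913 FPKM in Carmil3 KO and 704 to 780 FPKM in WT libraries, of which Vim made up most. Vim and Pdgfra were called higher, while Pdgfrb and Col1a1 were called lower, at 2.06 and 0.271 FPKM in Carmil3 KO cells, against 9.49 and 1.501 FPKM in WT cells. Leukocyte markers, 5 of 7 with a row, summed to 3.44 to 4.60 FPKM in Carmil3 KO and 4.00 to 4.09 FPKM in WT libraries, and the 3 of 4 endothelial markers with a row were under 0.1 FPKM in every group. The part of these markers in the results below was not tested.

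Cyclin D1 stood out among the members. Of the 8 members tested, 5 were higher in Carmil3 KO cells, none was lower and 3 did not pass the test, beside 16.9% of all genes called higher. The members that rose were Ccnd1, Ccnd2, Cdkn1a, Cdkn1b and Cdkn2c, so cyclin genes and inhibitor genes were higher in the same libraries. The E-type cyclins and Ccnd3 did not pass. The median log2 change of the 8 was 0.35, beside -0.01 over all genes tested. The groups did not overlap for 5 of the 8 members, beside 50.5% of all genes tested. These 5 are the called members, and a call itself favours groups that lie apart.

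**Figure D1:**
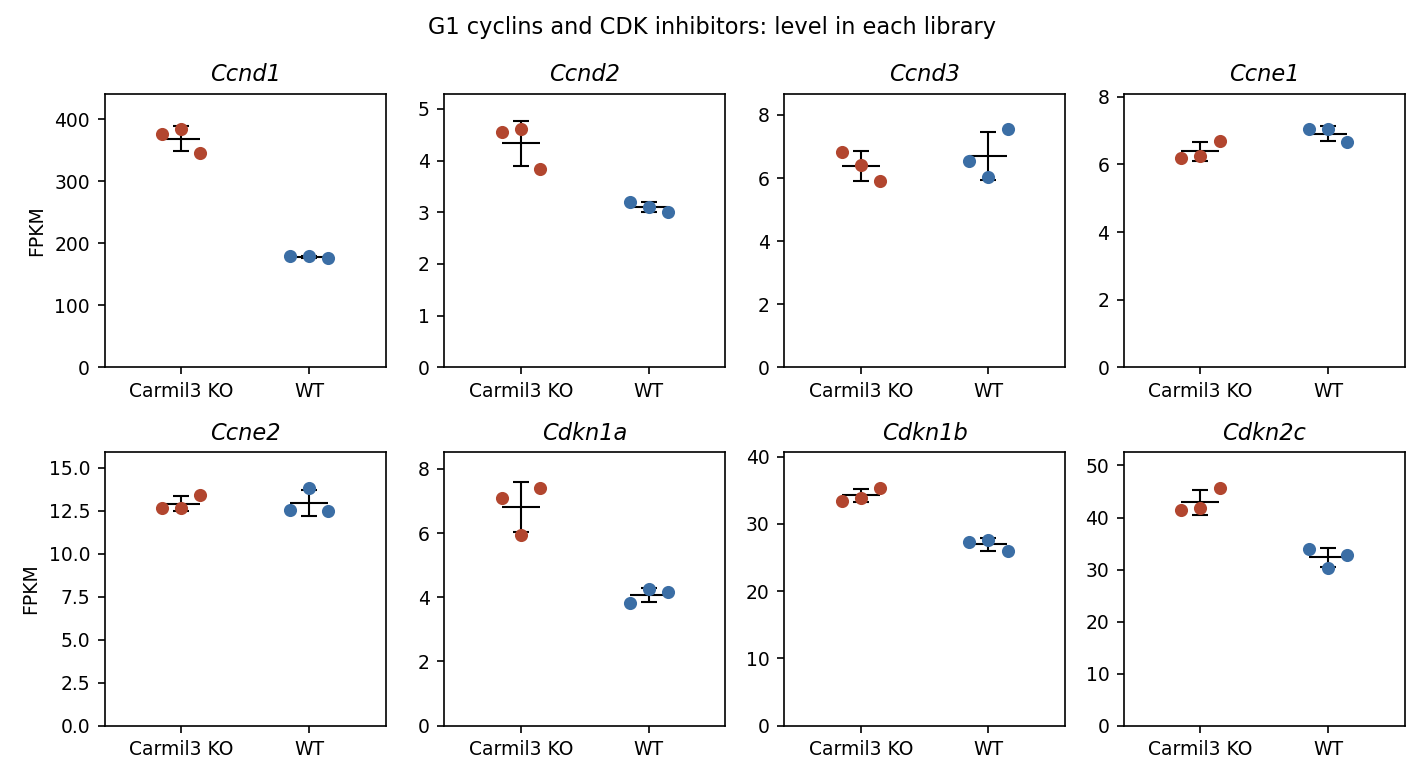
FPKM of the 8 members in each library, with Carmil3 KO left of WT; points are replicates 1 to 3 from left to right, and bars are the mean and SD (n = 3 per group). Each panel has its own axis from 0. The Ccnd1 points lie between 345.7 and 383.8 FPKM in Carmil3 KO libraries and between 176.2 and 179.5 FPKM in WT libraries, while those of Ccnd3, Ccne1 and Ccne2 overlap between the groups.

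The promoters of 3 members that rose, and of Ccne1, which did not pass, are shown because they differ in the motifs they hold. RefSeq promoters on GRCm38.p6 were matched by symbol for 7 of the 10 members, in 11 entries; there was none for Ccnd1, Ccnd2 or Ccne2. Each sequence is the 250 bases before the start, on the strand of the gene. Capitals mark matches, on either strand, to the motifs searched: the E2F letters TTCCCGC or TTGGCGC, the GC box GGGCGG, the CCAAT box CCAAT, the TATA box TATAAA, the E-box CACGTG, the AP-1 letters TGACTCA and the p53 half-site.
Cdkn1a, upstream start, chr17:29090729-29090978, plus strand: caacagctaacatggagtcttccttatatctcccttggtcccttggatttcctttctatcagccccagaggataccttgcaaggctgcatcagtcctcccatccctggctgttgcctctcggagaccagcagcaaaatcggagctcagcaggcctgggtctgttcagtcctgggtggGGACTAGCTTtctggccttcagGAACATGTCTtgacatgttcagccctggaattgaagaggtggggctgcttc
Cdkn1b, chr6:134920151-134920400, plus strand: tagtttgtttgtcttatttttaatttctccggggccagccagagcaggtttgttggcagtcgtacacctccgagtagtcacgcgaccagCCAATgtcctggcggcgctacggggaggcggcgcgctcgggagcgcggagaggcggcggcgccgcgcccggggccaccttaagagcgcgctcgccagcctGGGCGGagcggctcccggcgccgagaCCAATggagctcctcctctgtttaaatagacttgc
Cdkn2c, upstream start, chr4:109666757-109667006, minus strand: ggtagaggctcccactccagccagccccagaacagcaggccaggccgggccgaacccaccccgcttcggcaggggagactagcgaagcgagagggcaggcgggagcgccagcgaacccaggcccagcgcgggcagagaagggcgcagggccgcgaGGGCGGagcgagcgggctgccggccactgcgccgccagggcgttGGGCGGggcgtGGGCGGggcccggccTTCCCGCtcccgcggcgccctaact
Ccne1, chr7:38107491-38107740, minus strand: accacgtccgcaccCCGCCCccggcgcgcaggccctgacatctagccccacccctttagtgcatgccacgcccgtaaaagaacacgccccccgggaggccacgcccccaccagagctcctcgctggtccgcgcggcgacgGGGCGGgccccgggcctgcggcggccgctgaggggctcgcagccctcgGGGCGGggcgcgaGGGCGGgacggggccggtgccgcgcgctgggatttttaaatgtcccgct

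The upstream Cdkn1a promoter held 2 p53 half-sites, 73 and 51 bases before the start, and no other motif of those searched; p53 half-sites were found in 7.12% of the 32817 mouse promoters of the same length. A second Cdkn1a start, 2793 bases into the gene, had 2 GC boxes and no p53 half-site in its window. Cdkn1b had 2 CCAAT boxes and 1 GC box, where 33.8% of all promoters hold a CCAAT box and 32.7% a GC box. The capitals in Cdkn2c are 3 GC boxes and 1 E2F match 25 bases before the start, which does not overlap a GC box, and an E2F match was found in 5.61% of all promoters. A second Cdkn2c start, 1817 bases into the gene, had no match to any motif searched in its window. Ccne1, an E2F-driven gene in the textbook view, had 4 GC boxes and no match to those E2F letters in its window. TATA, E-box and AP-1 letters were found in none of the 4 windows shown, and in 12.4%, 6.02% and 4.46% of all promoters. A match describes these letters and says nothing of binding.

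Ccnd1 was the most highly expressed member in both groups and had the largest change. The gene (ENSMUSG00000070348, chr7:144929931-144939925, minus strand, GRCm38) encodes cyclin D1, the regulatory subunit of Cdk4 and Cdk6. It measured 375.6, 383.8 and 345.7 FPKM in Carmil3 KO libraries 1 to 3, against 179.5, 178.5 and 176.2 FPKM in WT libraries 1 to 3. Every Carmil3 KO library stood far above every WT library, and the WT libraries lay close together. The means were 368 ± 20.02 FPKM in Carmil3 KO and 178 ± 1.69 FPKM in WT cells (SD, n = 3 each), a ratio of 2.07. In reads, these levels rest on 33688, 33442 and 29533 in Carmil3 KO libraries and 15367, 14941 and 15530 in WT libraries. The log2 change was 1.04 ± 0.0598 (SE), with a 95% interval of 0.91 to 1.18 and a limma adjusted p (Benjamini-Hochberg) of 5.01e-06. A rise as large or larger was found for 100 of the genes tested, 0.895% of them. In order of level among the genes tested, Ccnd1 stood at place 85 in Carmil3 KO and place 208 in WT cells. Since these are bulk samples, more cells in G1 and more Ccnd1 transcript per cell cannot be told apart. For the other members too, a change in the mix of cells and a change in RNA per cell cannot be told apart.

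Ccnd2, which encodes cyclin D2 (ENSMUSG00000000184, chr6:127125162-127152193, minus strand), was a minor transcript that also rose. It measured 4.548, 4.606 and 3.838 FPKM in Carmil3 KO libraries, against 3.197, 3.103 and 3.009 FPKM in WT libraries. The groups did not overlap, and Carmil3 KO replicate 3 was the lowest of its group. The means of 4.33 ± 0.428 FPKM in Carmil3 KO and 3.10 ± 0.0940 FPKM in WT cells (SD, n = 3 each) give a ratio of 1.40. Its log2 change was 0.37 ± 0.0754 (SE; 95% interval 0.20 to 0.55), with a limma adjusted p of 0.00560. Genes near each other often moved together in these cells, so each gene was also centred on its neighbours, by taking off the median change of the nearest 20 tested genes to the left and to the right. Centred in this way, Ccnd2 had a log2 change of 0.19, and its call did not hold (limma adjusted p 0.0813).

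Ccnd3, which encodes cyclin D3 (ENSMUSG00000034165, chr17:47505051-47599691, plus strand), did not pass. Its level was 6.839, 6.398 and 5.906 FPKM in Carmil3 KO libraries, against 6.531, 6.044 and 7.549 FPKM in WT libraries. The highest library was WT replicate 3 and the lowest Carmil3 KO replicate 3, with the others intermixed. The log2 change was -0.06 with a 95% interval of -0.25 to 0.13 and a limma adjusted p of 0.618, so a change as large as that of Ccnd1 lies outside its interval.

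Together the D-type cyclins summed to 387, 394.8 and 355.5 FPKM in Carmil3 KO libraries, against 189.2, 187.6 and 186.7 FPKM in WT libraries. Nearly all of it was Ccnd1, with a share of 97.2% ± 0.106 in Carmil3 KO and 94.8% ± 0.396 in WT cells (SD, n = 3 each). The share of Ccnd3 was 1.68% in Carmil3 KO and 3.57% in WT cells, and that of Ccnd2 was 1.14% in Carmil3 KO and 1.65% in WT cells. So Ccnd2 rose as a gene while its share of the D-type sum was smaller. The ratio of Ccnd1 to Ccnd3 levels was 54.9 to 59.98 in Carmil3 KO libraries and 23.3 to 29.5 in WT libraries.

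The E-type cyclins stayed within the spread of the libraries. Ccne1, which encodes cyclin E1 (ENSMUSG00000002068, chr7:38097984-38107534, minus strand), measured 6.193, 6.252 and 6.710 FPKM in Carmil3 KO libraries, against 7.045, 7.036 and 6.663 FPKM in WT libraries. Carmil3 KO replicate 3 lay above WT replicate 3, and the other libraries of the groups did not cross. The log2 change was -0.10 with a 95% interval of -0.24 to 0.03 and a limma adjusted p of 0.219. After centring on its neighbours, which were mostly slightly higher, the change was -0.26 with an adjusted p of 0.0112, and Ccne1 was then called lower. Ccne2, which encodes cyclin E2 (ENSMUSG00000028212, chr4:11191351-11204779, plus strand), measured 12.66, 12.68 and 13.42 FPKM in Carmil3 KO libraries and 12.57, 13.84 and 12.47 FPKM in WT libraries. The groups were intermixed, with a log2 change of -0.00 (95% interval -0.14 to 0.13, limma adjusted p 0.974). Ccne2 was the larger of the pair in every library, with 66.9% ± 0.245 of the E-type sum in Carmil3 KO and 65.2% ± 1.10 in WT cells (SD, n = 3 each). The sum itself was 19.3 ± 0.717 FPKM in Carmil3 KO and 19.9 ± 0.899 FPKM in WT cells.

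Both Cip/Kip inhibitor genes rose. Cdkn1a (ENSMUSG00000023067, chr17:29090976-29100727, plus strand) encodes p21, the inhibitor that p53 induces after DNA damage. It measured 7.109, 5.931 and 7.415 FPKM in Carmil3 KO libraries, against 3.835, 4.251 and 4.157 FPKM in WT libraries. Carmil3 KO replicate 2 was the lowest of its group and still above every WT library. The means were 6.82 ± 0.783 FPKM in Carmil3 KO and 4.08 ± 0.218 FPKM in WT cells (SD, n = 3 each), a ratio of 1.67. With a log2 change of 0.62 ± 0.0838 (SE; 95% interval 0.43 to 0.81) and a limma adjusted p of 0.000753, it had the largest rise after Ccnd1. A rise at least as large was found for 283 of the genes tested, 2.53% of them. Centred on its neighbours, the change was 0.50 with an adjusted p of 0.00227.

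Cdkn1b (ENSMUSG00000003031, chr6:134920401-134925513, plus strand) encodes p27, which holds quiescent cells in G1 and also helps cyclin D to assemble with its kinases. Its level was 33.47, 33.89 and 35.39 FPKM in Carmil3 KO libraries, against 27.38, 27.59 and 25.91 FPKM in WT libraries. The groups did not overlap and each was tight. The means of 34.3 ± 1.01 FPKM in Carmil3 KO and 27.0 ± 0.914 FPKM in WT cells (SD, n = 3 each) give a ratio of 1.27, with a log2 change of 0.33 ± 0.0517 (SE; 95% interval 0.22 to 0.45) and a limma adjusted p of 0.00150. Centred on its neighbours on chromosome 6, it had a log2 change of 0.13 that no longer passed (limma adjusted p 0.0886). Those neighbours reach beyond 1 Mb, and the 11 tested genes within 1 Mb of Cdkn1b had a median log2 change of only 0.01. Cdkn1b had 4.71 to 5.71 times the level of Cdkn1a in Carmil3 KO libraries and 6.23 to 7.14 times in WT libraries.

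Of the Ink4 genes, Cdkn2c (ENSMUSG00000028551, chr4:109660876-109667189, minus strand) encodes p18, which binds Cdk6 and Cdk4. It measured 41.42, 41.75 and 45.73 FPKM in Carmil3 KO libraries, against 33.89, 30.32 and 32.82 FPKM in WT libraries. No library of one group fell within the range of the other, and Carmil3 KO replicate 3 was the highest. The means were 43.0 ± 2.40 FPKM in Carmil3 KO and 32.3 ± 1.83 FPKM in WT cells (SD, n = 3 each), a ratio of 1.33. The log2 change was 0.40 ± 0.0630 (SE; 95% interval 0.26 to 0.54, limma adjusted p 0.00165), and it was 0.39 with an adjusted p of 0.00297 after centring. Cdkn2c was thus the most highly expressed inhibitor gene among the members in both groups.

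Cdkn2d, the remaining Ink4 gene and not a member, encodes p19Ink4d and moved in the same direction. It measured 18.6 ± 1.54 FPKM in Carmil3 KO and 13.2 ± 0.637 FPKM in WT cells (SD, n = 3 each), with a log2 change of 0.46 and a limma adjusted p of 0.00139. Cdkn1c, the third Cip/Kip gene, which encodes p57, was near 0 in both groups and was not tested. The summed level of Cdkn1a, Cdkn1b, Cdkn2c and Cdkn2d differed between the groups by a smaller factor than that of the D-type cyclins. The ratio of the D-type sum to the inhibitor sum was 3.862, 3.994 and 3.267 in Carmil3 KO libraries, against 2.418, 2.509 and 2.433 in WT libraries. This ratio of transcripts is a description with no test.

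Cdkn2a, which encodes p16 and the alternative product p19Arf, and Cdkn2b, which encodes p15, lie next to each other on chromosome 4 (chr4:89274471-89294653 and chr4:89306299-89311039, both on the minus strand). Without a row neither has a value. No row of the table was at 0 in all 6 libraries, so genes without reads may have been left out of it. Whether Cdkn2a and Cdkn2b had no reads cannot be told from the table. Of the genes within 1 Mb of the pair 10 were tested: Mtap, Mir31, Gm12606, Focad, Hacd4, Klhl9, Mrpl48-ps, Wincr1, Gm12602 and Gm26490. Mtap, a methionine salvage gene that is often lost together with CDKN2A in human tumours, was abundant, with 406 FPKM in Carmil3 KO and 290.0 FPKM in WT cells. It rose by a log2 change of 0.48 (limma adjusted p 0.000605). Mir31 and Gm12606 also rose, with log2 changes of 0.36 and 0.43, and the other 7 did not pass. Gm12606 rests on only 18 to 41 reads per library, and Mir31 on 48 to 81. So 3 of the 10 were higher and 0 lower. Over all genes tested 16.9% were higher and 18.7% lower, and on chromosome 4 24.7% and 9.18%. These values say nothing of the levels of Cdkn2a and Cdkn2b themselves.

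In order of level, both groups had Ccnd1 first, then Cdkn2c, Cdkn1b and Ccne2, with no overlap between neighbours in that order. Below these, Carmil3 KO cells had Cdkn1a, Ccne1 and Ccnd3 at 6.82, 6.39 and 6.38 FPKM, whose libraries overlapped from one to the next, and then Ccnd2. In WT cells Ccne1 and Ccnd3 overlapped at 6.92 and 6.71 FPKM, with Cdkn1a and then Ccnd2 below them. The place of Cdkn1a is the only difference in the order between the groups.

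**Figure D2:**
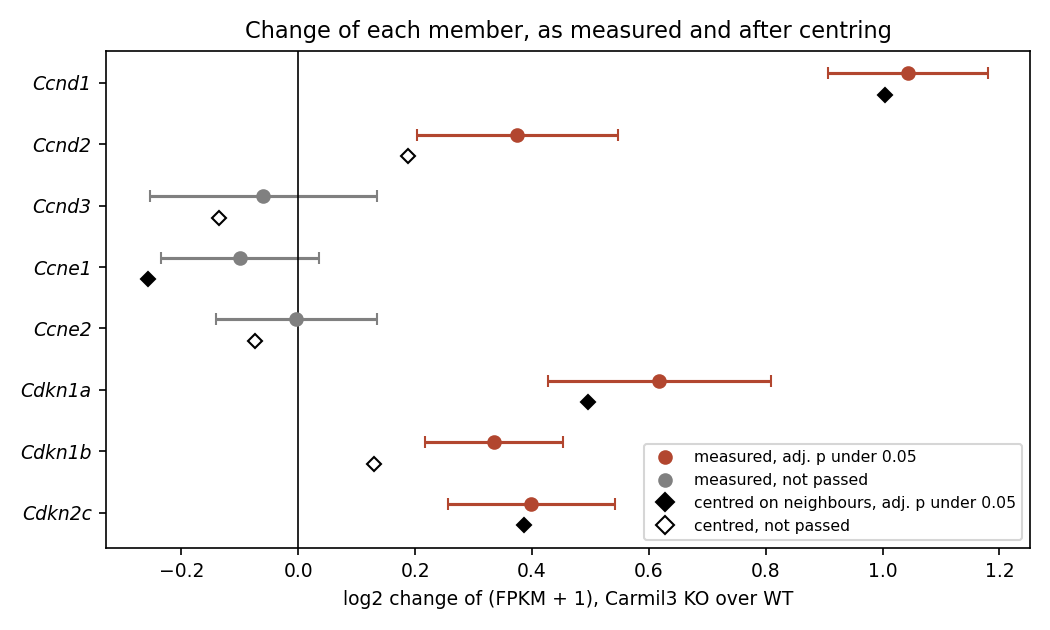
Log2 change of (FPKM + 1), Carmil3 KO over WT, of the 8 members, with the limma 95% interval (circles and bars) and the change after centring on neighbours (diamonds, filled where the adjusted p was under 0.05). Ccnd1 is at 1.04 as measured and at 1.004 after centring; Ccnd2 and Cdkn1b, on chromosome 6, are at 0.37 and 0.33 as measured and at 0.19 and 0.13 after centring.

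Changes followed chromosome position in these cells, and the members sit in regions that differ in this respect. On chromosome 6, which holds Ccnd2 and Cdkn1b, 39.4% of the 523 genes tested were higher and the median log2 change was 0.16. The median was 0.13 on chromosome 7, 0.10 on chromosome 4 and 0.08 on chromosome 17, which hold the other members. Copy number was not measured, and its part in these changes was not tested. Within 1 Mb of Ccnd1, 6 other genes were tested, and none was called in either direction; their log2 changes lay between -0.15 and 0.19, far below the 1.04 of Ccnd1. They include Cttn, Fadd and Ano1, which are often gained together with CCND1 in human tumours, with Cttn at 67.1 FPKM in Carmil3 KO and 67.6 FPKM in WT cells. These genes were looked up after their values were seen.

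Near Ccnd2, 3 of 6 tested genes were higher and none lower, with a median log2 change of 0.19, and none changed as much as Ccnd2. Near Cdkn1b, 4 of 11 were higher and 2 lower, and the median was 0.01. Lockd, a noncoding RNA gene just downstream of Cdkn1b and picked out after its values were seen, measured 2.67 FPKM in Carmil3 KO and 1.59 FPKM in WT cells, a log2 change of 0.50 with a limma adjusted p of 0.00139. Near Cdkn1a, 5 of 22 were higher and 1 lower, with a median of 0.14. Pim1 and Mapk13, kinase genes also picked out after their values were seen, changed by more than Cdkn1a, with log2 changes of 1.18 and -0.94. Near Cdkn2c, 1 of 13 was higher and 1 lower, with a median of -0.01. The counts of genes higher and lower were 5 and 1 of 27 near Ccnd3, 1 and 0 of 3 near Ccne1, and 3 and 1 of 16 near Ccne2. Over all genes tested 16.9% were higher and 18.7% lower.

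**Figure D3:**
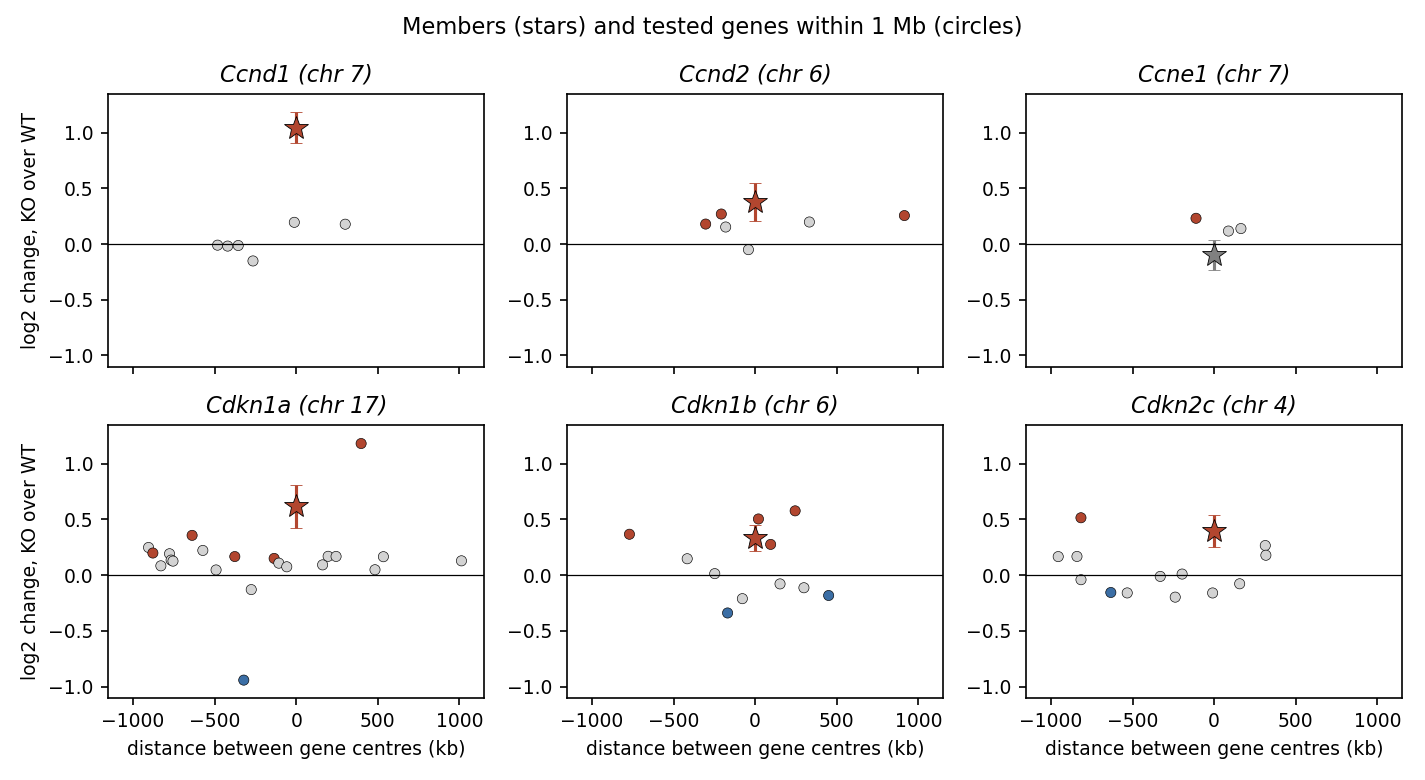
Log2 change of (FPKM + 1), Carmil3 KO over WT, of 6 members (stars, with the limma 95% interval) and of the tested genes within 1 Mb (circles), against the distance between gene centres in kb. Red marks genes called higher, blue genes called lower, grey genes that did not pass. Ccnd1 stands alone at 1.04 above neighbours between -0.15 and 0.19, whereas Pim1 lies above Cdkn1a at 1.18.

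The strand setting of the counting is not known, so reads of overlapping genes on the other strand cannot be told apart. The gene models of Ccnd1, Ccnd3 and Ccne2 overlap those of LTO1, Bysl and Ints8, which measured 2.18, 9.34 and 11.7 FPKM in Carmil3 KO and 1.78, 11.2 and 10.6 FPKM in WT cells. LTO1 is far below Ccnd1, whereas Bysl and Ints8 are at about the level of Ccnd3 and Ccne2. Only part of each gene is shared: chr17:47599331-47599691 for Ccnd3 and Bysl, and chr4:11199158-11204779 for Ccne2 and Ints8. The values of Ccnd3 and Ccne2 are uncertain by the reads in these stretches, whose number was not tested. Ccnd2 overlaps the antisense genes 9330179D12Rik, listed at 0 FPKM in Carmil3 KO and 0.025 FPKM in WT cells, and Gm43126, and Cdkn1a overlaps AC167363.2 on the other strand. Gm43126 and AC167363.2 have no row in the table used here, so what they add to the values of Ccnd2 and Cdkn1a was not tested.

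Genes with a pattern most like a member were found by Pearson's r of log2(FPKM + 1) over the 6 libraries. As the libraries form 2 separate groups, r mostly reads the difference between the groups, and it is given as a description. For Ccnd1 the closest were Cebpd, Hk2 and Dab2 with r of 0.9996, 0.9994 and 0.9992, among 716 genes with r over 0.95. Dcbld2, Itpripl2 and Polr1a were the closest to Ccnd2, and AI597479, Ttc5 and Ero1l to Cdkn1a. For Cdkn1b they were Sept10, Lix1l and Glud1, and for Cdkn2c they were Pdia4, March2 and Pnrc1, with r between 0.9961 and 0.998 for these 12 genes.

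Of the kinases that the G1 cyclins activate, Cdk4 and Cdk6 rose and Cdk2 did not pass. Cdk4, the main partner of the D-type cyclins by level, measured 119 ± 3.63 FPKM in Carmil3 KO and 94.8 ± 7.76 FPKM in WT cells (SD, n = 3 each), a log2 change of 0.33 with a limma adjusted p of 0.00672. Cdk6 measured 14.5 ± 0.634 FPKM in Carmil3 KO and 11.2 ± 0.178 FPKM in WT cells, a log2 change of 0.34 with a limma adjusted p of 0.00176. Cdk2, the partner of the E-type cyclins, measured 11.8 FPKM in both groups (log2 change -0.00, 95% interval -0.14 to 0.13). The level of Ccnd1 was 3.115, 3.337 and 2.838 times that of Cdk4 in Carmil3 KO libraries and 1.875, 2.06 and 1.726 times in WT libraries. Of the Cdk-activating kinase, Cdk7 rose by 0.31, and its partners Ccnh and Mnat1 had log2 changes of 0.10 and -0.08 that did not pass. The phosphatase gene Cdc25a and the kinase chaperone gene Cdc37 did not pass either (0.00 and 0.14). In all, 3 of these 8 genes were higher and none lower. That is 37.5% called, beside 35.6% called and 16.9% higher over all genes tested.

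Of 13 pocket protein and E2F genes, 5 were higher, 2 were lower and 6 did not pass, with a median log2 change of 0.12. That is 38.5% higher and 15.4% lower, beside 16.9% and 18.7% of all genes tested. Rb1, which encodes the retinoblastoma protein that cyclin D kinases phosphorylate, fell to 2.58 ± 0.0629 FPKM in Carmil3 KO cells, against 3.55 ± 0.300 FPKM in WT cells (SD, n = 3 each; log2 change -0.35, limma adjusted p 0.00636). E2f4, the repressor E2F that pairs with pocket proteins in resting cells, fell to 31.7 ± 1.17 FPKM in Carmil3 KO cells, against 41.6 ± 1.81 FPKM in WT cells (log2 change -0.38, limma adjusted p 0.00105). The pocket protein genes Rbl1 and Rbl2 had log2 changes of 0.00 and -0.21 that did not pass. E2f1, E2f2, E2f5, E2f6 and E2f8 were higher by 0.22, 0.28, 0.20, 0.19 and 0.20 on the log2 scale. Each of these 5 calls was lost with at least 2 of the libraries left out in turn, so that with 1 library left out between 1 and 3 genes of the list were higher, where the calls of Rb1 and E2f4 held. E2f3, E2f7, Tfdp1 and Tfdp2 did not pass (log2 changes of 0.15, -0.10, 0.12 and 0.01).

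Genes that E2F switches on at the start of S phase were called about as often as genes in general. Of 18 tested, 3 were higher and 3 lower, 16.7% each, beside 16.9% and 18.7% of all genes tested, and their median log2 change was 0.00. Orc1, which encodes an origin recognition subunit, rose by 0.38 on the log2 scale, and Uhrf1 by 0.31, a call lost after centring. The replication helicase genes Mcm5 and Mcm6 had log2 changes of -0.46 and -0.23, and Pcna, the sliding clamp gene, had -0.21. The call of Pcna was lost with 5 of the libraries left out in turn, and that of Mcm6 after centring. Ccne1 and Ccne2, which are E2F targets among the members, did not pass, as given above. Of 12 cyclins and kinases of later phases, 33.3% were called, beside 35.6% called and 16.9% higher over all genes tested. In this list 4 were higher and none lower: Top2a, Ccnb1, Ccna2 and Ccnf, with log2 changes of 0.30, 0.22, 0.20 and 0.20. Of these 4, the call of Ccnb1 was the 1 that held with each library left out. Of 8 subunits of the DREAM and MuvB complexes, which silence cell cycle genes in resting cells, Rbbp4 was higher (0.31) and Lin9 and Lin54 were lower (-0.22 and -0.20), and each fall was lost with 5 of the libraries left out in turn. The call of Rbbp4 was lost after centring (0.17, limma adjusted p 0.0577). Of the DREAM and MuvB list 37.5% was called, beside 35.6% of all genes tested.

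Of 18 tested genes of ubiquitin ligases and other factors in the degradation of the members, 1 was higher and 3 were lower. That is 22.2% called, beside 35.6% of all genes tested. Cks1b, the cofactor with which the Skp2 ligase recognises p27, rose to 155 ± 14.7 FPKM in Carmil3 KO cells, against 116 ± 6.51 FPKM in WT cells (log2 change 0.41, limma adjusted p 0.00417). Skp2 itself had a log2 change of -0.16, a call lost with 4 of the libraries left out in turn. Fbxo4, an F-box gene described as acting on cyclin D1, fell to 9.36 ± 0.799 FPKM in Carmil3 KO cells, against 12.8 ± 0.459 FPKM in WT cells (log2 change -0.41, limma adjusted p 0.00212). Cul4b, a cullin scaffold gene, had a log2 change of -0.32, and its call was lost after centring.

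Of 24 tested regulators that act on transcription of the members, 7 were higher, 6 lower and 11 did not pass, with a median log2 change of -0.00. That is 54.2% called, beside 35.6% called, 16.9% higher and 18.7% lower over all genes tested. Myc, which represses Cdkn1a and activates Ccnd2 in many cells, rose to 54.2 ± 1.83 FPKM in Carmil3 KO cells, against 39.6 ± 2.56 FPKM in WT cells (log2 change 0.44, limma adjusted p 0.000809). Its antagonist Mxd3 rose to 14.7 ± 0.525 FPKM in Carmil3 KO cells, against 7.77 ± 0.609 FPKM in WT cells (0.84). Smad3, a mediator of TGF-beta signals, was higher by 0.75, while Smad2 had a log2 change of -0.40. Ezh2, a Polycomb methyltransferase gene known for silencing the Cdkn2a locus, was higher by 0.41, and the Polycomb gene Bmi1 had -0.23. The call of Ezh2 was lost after centring (0.20, limma adjusted p 0.0738), and that of Bmi1 with 4 of the libraries left out in turn. Ets2 and Ets1, which encode ETS factors, had log2 changes of -1.28 and -0.49. The other regulators called higher were Id1, Mxi1 and Trp53, with log2 changes of 0.39, 0.36 and 0.32 (limma adjusted p 0.00353 for Trp53). Trp53 encodes the p53 protein, which binds the Cdkn1a promoter in cells where p53 is functional. Mdm2, of the same list, did not pass (0.09, limma adjusted p 0.180). The p53 protein was not measured, and whether these 4T1 cells make a functional form was not examined. A transcript level does not show this, and the part of p53 in the change of Cdkn1a was not tested.

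Over all partner genes, 102 of 107 listed were tested, and 25 were higher (24.5%) and 16 lower (15.7%), beside 16.9% and 18.7% of all genes. Leaving aside the test against a change of 1.5-fold, 16 alternatives were run, and 21 of these 41 calls held in each one that gave the gene a value, 14 of them higher and 7 lower. Among those kept were Cdk4, Cdk6, Cdk7, Cdkn2d, Rb1, E2f4, Myc, Mxd3, Smad3, Ets1, Ets2 and Trp53.

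**Figure D4:**
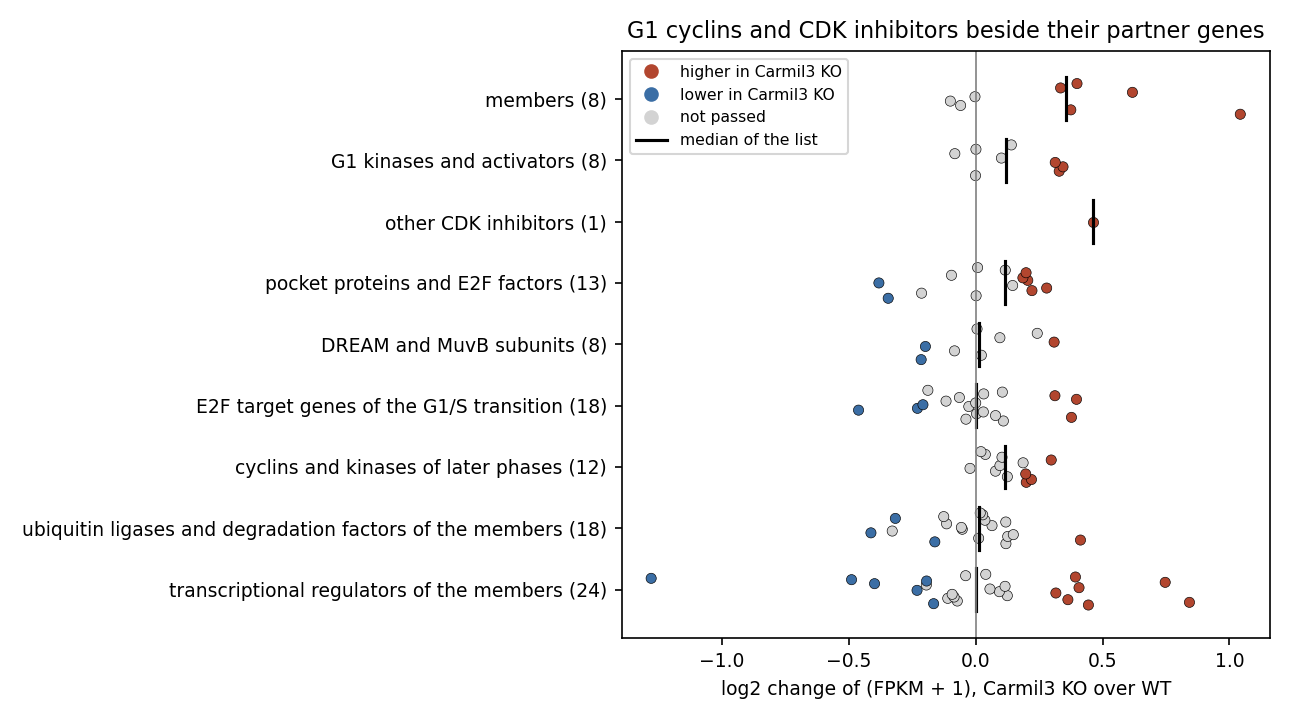
Log2 change of (FPKM + 1), Carmil3 KO over WT, of the 8 members and of the tested genes of each partner list (number in brackets); red marks genes called higher, blue genes called lower, grey genes that did not pass, and the black line is the median of the list. The members have a median of 0.35, the kinases 0.12 and the E2F target genes 0.00; the highest member is Ccnd1 at 1.04 and the lowest partner gene is Ets2 at -1.28.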

How the data were processed

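RNA was sequenced from 3 Carmil3 KO and 3 WT libraries, grouped by the titles and genotype labels. The authors deposited 1 table whose values have the form of FPKM, a unit read from the values themselves, so that single reads and read pairs cannot be told apart. The submitters' processing notes list the build mm10 and the tools HTSeq 0.6.0, TopHat2 2.0.12, TopHat, Bowtie2, Bowtie and CASAVA. The sources used here name no annotation release, strand setting or role of each tool.

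Identifiers were matched to GENCODE M21 (GRCm38, also called mm10), with a symbol for 23587 rows. Whole reads were recovered from the FPKM steps and exon lengths: 91.9% to 92.2% of values up to 500 reads came out whole within 0.02. Reads summed over listed genes were 108.7% to 109.1% of the recovered totals, so these depths are relative. Values were tested as log2(FPKM + 1) on genes that reached 1 FPKM in 3 or more libraries, in R 4.3.3 with limma 3.58.1, with trend and robust set in eBayes and Benjamini-Hochberg adjustment over all genes tested. Figures were drawn with matplotlib 3.10.9, and tables were handled with pandas 2.3.3 and numpy 2.4.6 in Python 3.11.15.

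Alternatives were a replicate block, limma-voom on recovered reads, centring on the 20 nearest tested genes to either side, quantile normalization, median-of-ratios rescaling, pseudocounts of 5 and 0.1, a 5 FPKM filter or none, plain eBayes, each library left out, and testing against a change of 1.5-fold. Replicates spread beyond sampling noise (chi-square over its degrees of freedom of 2.95 to 18.31), and all 6 libraries were kept.

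The fit was tested on simulated data with known changes. It recovered 58.5% of changes of 1.25-fold and 95.2% of those of 1.5-fold, with 11 false calls among 11104 genes. The simulated data held neither shifts shared along chromosomes nor the wider spread of Carmil3 KO replicate 3. Named were all members; from each partner list up to 4 called genes per direction by size of change with at least 2 FPKM in the higher group; every kinase, other inhibitor, pocket protein and E2F gene; and the 3 genes most like each called member. Not every gene that this rule names is reported here. Among the transcriptional regulators, Id1, Mxi1, Trp53 and Mdm2 were named outside it. Members, lists and tests were chosen with earlier results of these data known.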

Additional observations from a re-analysis of the deposited data

How the results depend on the processing

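Ccnd1 kept its call in all 17 alternatives, with log2 changes of 1.004 to 1.09. Against a 1.5-fold change the calls of Ccnd2 (0.37), Cdkn1a (0.62), Cdkn1b (0.33) and Cdkn2c (0.40) were lost, each with an adjusted p of 1; 1 member was then higher, 0 partner genes were higher and 1 lower, and over all genes 118 were higher and 193 lower. This test asks for a larger change by its construction. After centring on neighbours the calls of Ccnd2 (0.19) and Cdkn1b (0.13) were lost and Ccne1 (-0.26) was called lower, leaving 3 members higher and 1 lower and 9 partner genes lower; the cause was not tested. In no alternative did a called member change direction. Among the uncalled, Ccne2 turned to 0.0063 with median-of-ratios rescaling and 0.015 with quantile normalization, and lay between -0.029 and 0.042 with 1 library left out; Ccnd3 lay between -0.12 and 0.017, the highest without WT replicate 3. Without the filter 10 partner genes were lower. With 1 library left out, the 5 called members kept their calls, with adjusted p up to 0.0241 for Ccnd2. Partner genes lower ranged from 10 to 17, with 10 without Carmil3 KO replicate 2 or WT replicate 1. Over all genes 1182 to 2041 were higher and 1358 to 2218 lower, the lowest counts, 1182 and 1358, without WT replicate 1. Ccnd2 has no value under the filter of 5 FPKM. Same-numbered libraries deviated with correlations of -0.061, 0.149 and 0.098, so the numbers were not taken to pair them; with the replicate block 5 members were higher and 1900 genes higher and 2127 lower, and no member's call changed. At this depth Ccnd2 and Cdkn1a rest on 248 to 815 reads per library, the other members tested on 308 or more.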
